A study of Mus musculus with 6 samples.

Results

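Collagens were examined in retinal pigment epithelium (RPE), the pigmented cell layer between the photoreceptors and the choroid, of Abca4-/- and wild-type mice. The family was taken as every protein-coding gene of the deposited count table whose symbol has the form Col, digits, a, digits. The rule found 44 genes among the 54532 rows of the table, and 40 of them passed the filter on low counts and were tested together with 17300 other genes. They were grouped as 11 fibrillar collagens, 8 basement membrane collagens and 25 others.

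Bulk RNA sequencing covered 3 Abca4KO mice and 3 WT mice, with 1 library for each mouse. The Abca4KO mice were the Jackson line Abca4tm1Ght/J, which lacks functional Abca4, a retinoid transporter of photoreceptor discs and RPE. The WT mice were 129S1/SvlmJ, so line and genotype cannot be told apart. Both carried the Leu450 variant of Rpe65, lived under a 12-h light cycle on a standard diet and were sampled 5 h after light onset, and age and sex were not used here. Total counts lay between 17047286 and 19841307 per library, so that 3 counts of a gene equalled 0.152 to 0.174 CPM (counts scaled to a common effective library size). Abca4 itself stood at 32.6, 39.1 and 36.8 CPM in the Abca4KO libraries, against 955, 932 and 968 CPM in the WT libraries. The 10 RPE markers summed to 35541 to 37922 CPM in Abca4KO and 31436 to 39872 CPM in WT, and none of them was at 0 in any library. Ttr and Rgr, at means of 14281 and 11161 CPM in Abca4KO and 13564 and 10318 CPM in WT, held most of these sums. Of the 10 log2 fold changes, 4 were positive and 6 negative (median -0.10), and none passed the threshold. Mertk and Lrat lay below WT in every Abca4KO library, so 2 of 10 did not overlap (20%, against 12.8% of all genes). The dissections also held RNA of other cells. Markers of corneal and conjunctival surface epithelium summed to 3.65 to 56.9 CPM in Abca4KO and, in WT, to 9.53 and 103.2 CPM in replicates 1 and 3 and 461.8 CPM in replicate 2. Rod markers were highest in Abca4KO replicate 1, at 3459 CPM, with 1041 and 1161 CPM in the other Abca4KO libraries and 699 to 1822 CPM in WT.

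Collagens are secreted or membrane-anchored proteins built from 3 chains wound into a triple helix. Fibrillar collagens form the cross-banded fibres of connective tissue such as sclera and choroid, type IV collagens form the sheet-like network of basement membranes, and the remaining types coat fibrils, form beaded filaments or hexagonal networks, or span cell membranes. The RPE rests on Bruch's membrane, a layered matrix that holds basement membranes on both faces and a collagenous and elastic core, and it shares that matrix with the choroidal capillaries.

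Collagen transcripts took 0.564% to 0.666% of the counts in the Abca4KO libraries and 0.597% to 0.687% in the WT libraries, so the totals overlapped. In such bulk tissue, more or fewer cells of a type and more or less RNA per cell cannot be told apart. A few genes made up most of this. Col8a1, Col8a2 and Col9a3 together held 53.1% to 56.8% of the collagen counts in Abca4KO and 55.9% to 61.8% in WT. On a per-length scale (CPM per kb of merged exons, mean of all 6 libraries), 3 genes exceeded 100, 9 lay between 10 and 100, 19 between 1 and 10, and 13 below 1. Levels of different genes are compared on this scale only.

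**Figure D1:**
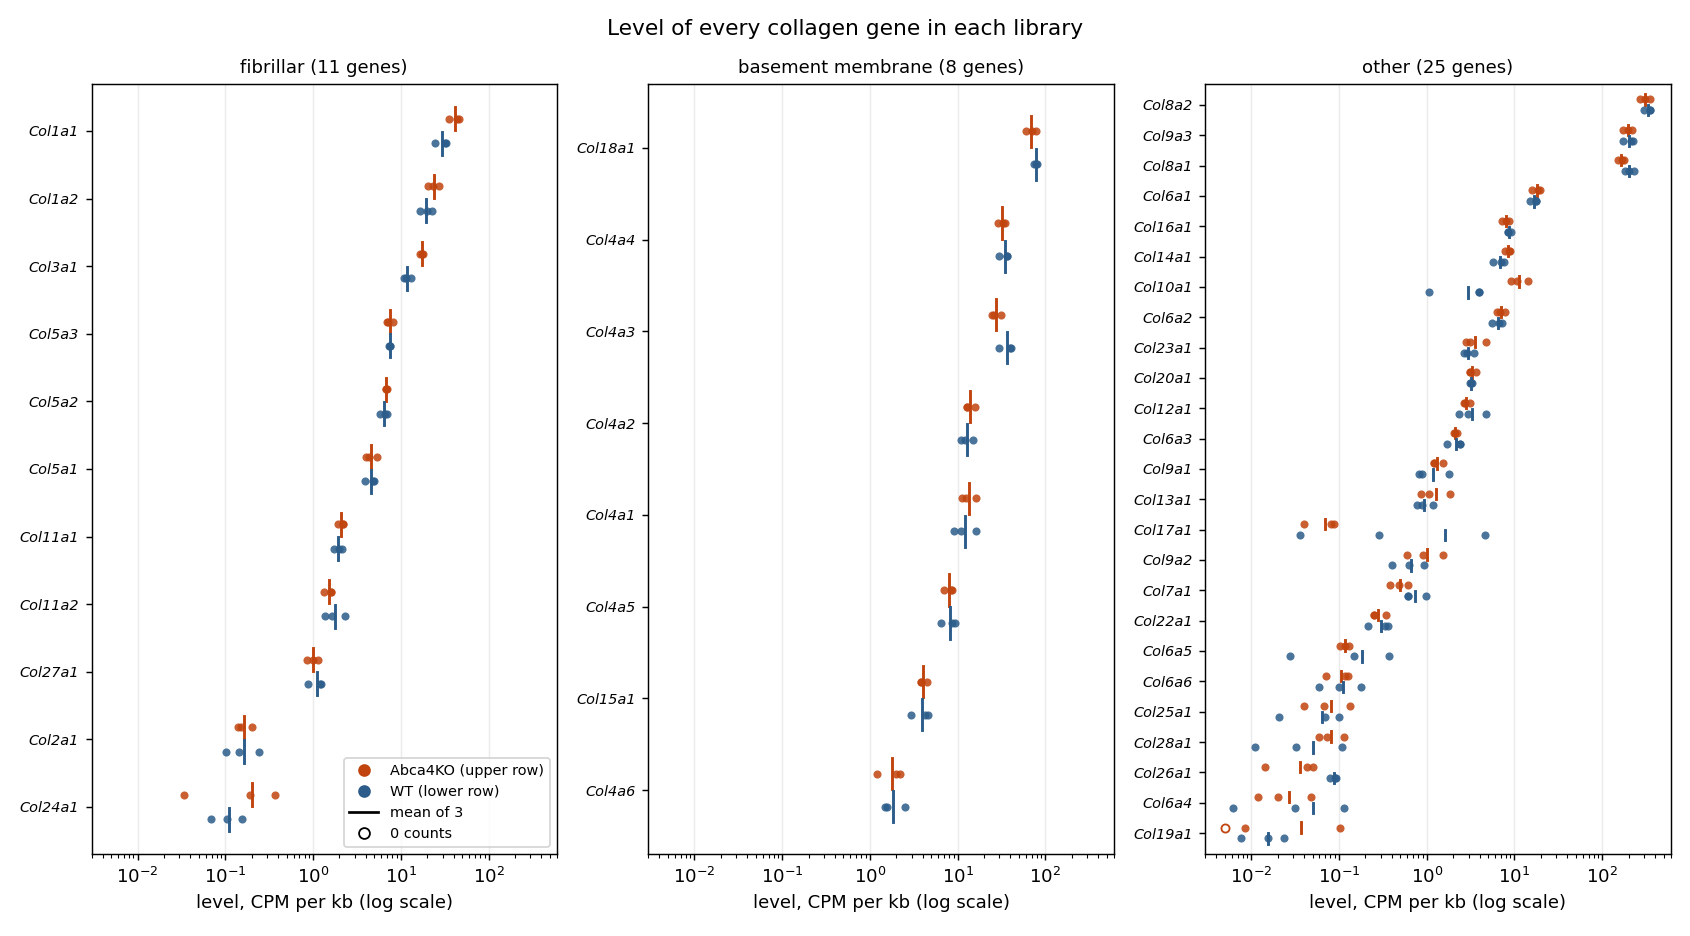
Level of each of the 44 collagen genes in every library, in CPM per kb on a log axis, by class. Each point is 1 library, Abca4KO in the upper and WT in the lower row of a gene, short bars are means of 3, and an open circle marks 0 counts (Col19a1 in Abca4KO replicate 2). Col8a2, Col9a3 and Col8a1 stand above 100 CPM per kb.

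No collagen passed an adjusted p of 0.05 in the comparison of Abca4KO with WT. The test was edgeR's 2-sided quasi-likelihood test with Benjamini-Hochberg adjustment over the 17340 genes tested, of which 8 (0.0461%) passed, 6 of them higher (0.0346%) and 2 lower (0.0115%) in Abca4KO. At an unadjusted p under 0.05 there were 6 collagens of 40 (15%), against 7.02% of all genes. Of these, 4 were higher in Abca4KO (Col3a1, Col10a1, Col1a1 and Col14a1; 3.15% of all genes) and 2 were lower (Col4a3 and Col8a1; 3.87% of all genes). For 6 collagens, again 15% of 40, Abca4KO and WT values had no overlap, against 12.8% of all genes, with 4 above (5.93% of all genes) and 2 below (6.85% of all genes). The share without overlap was close to that of all genes and the share at an unadjusted p under 0.05 was higher, but neither was tested against it, and the members were chosen with results of these data known. DESeq2 called 2 collagens, Col3a1 and Col10a1, and 0.657% of all genes. The limma-voom fit with sample weights called 0 collagens and 0.179% of all genes, and at an unadjusted p under 0.05 it had 11 collagens (27.5%) and 16.9% of all genes.

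**Figure D2:**
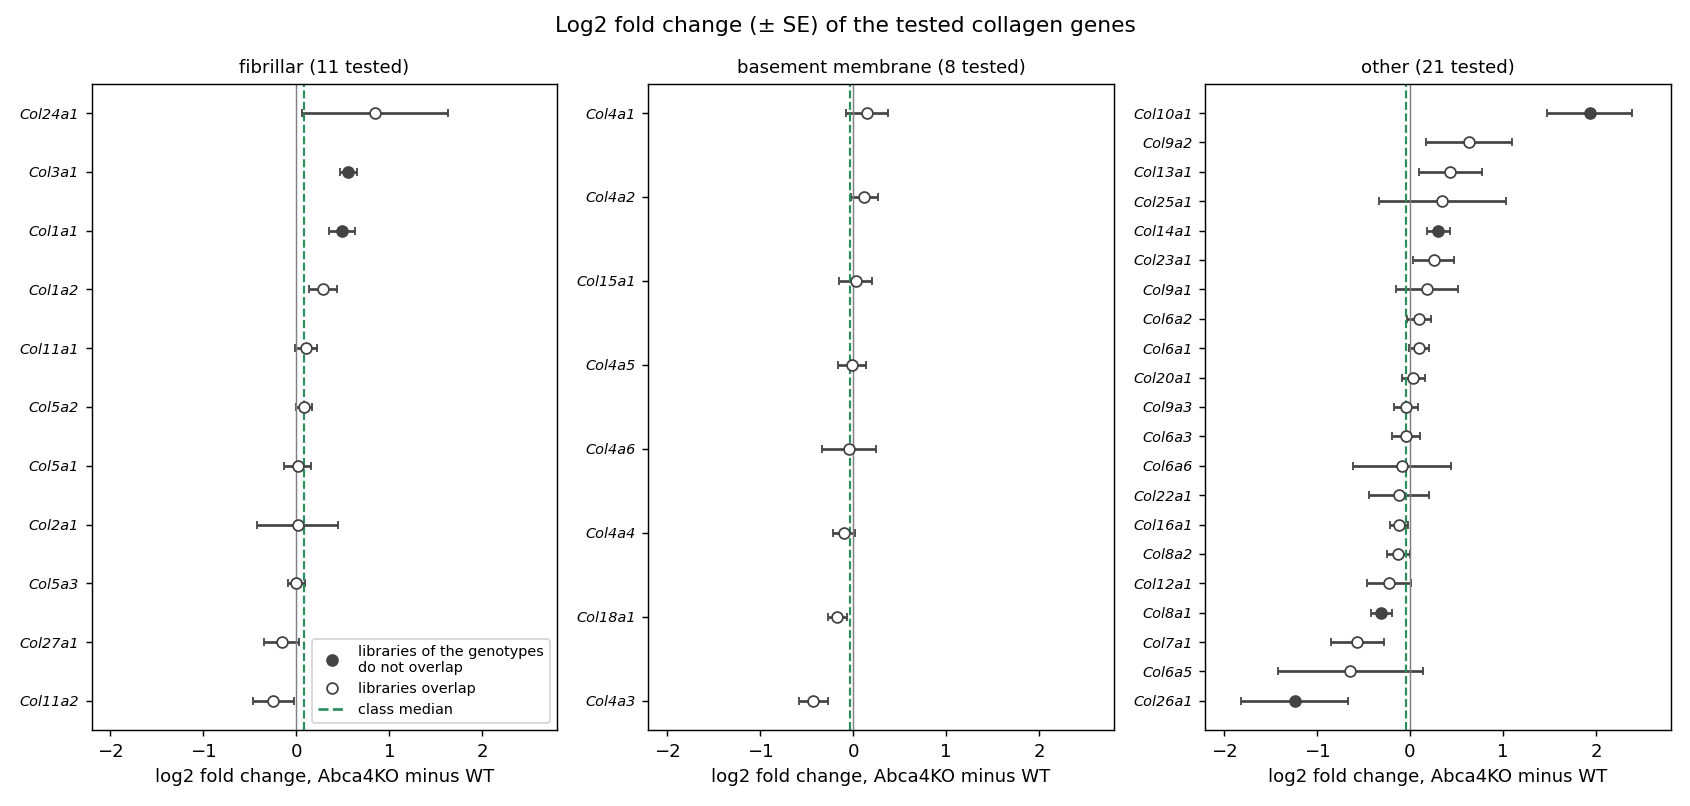
Log2 fold change, Abca4KO minus WT, of the 40 tested collagens with its standard error (SE), by class. Filled points are genes whose 3 Abca4KO libraries all lie on one side of the 3 WT libraries, and the dashed line is the class median. Col10a1 has the highest value, 1.93, and Col26a1 the lowest, -1.24.

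Among the fibrillar collagens, the 3 most abundant genes, Col1a1, Col1a2 and Col3a1, all had higher mean levels in Abca4KO, and the rest of the class was nearly equal. The summed level of all 11 genes was 846, 1022 and 967 CPM in Abca4KO, against 792, 805 and 671 CPM in WT, without overlap. Without those 3 genes, the other 8 summed to 202.5, 210.2 and 211.9 CPM in Abca4KO and 211.9, 201.5 and 201.5 CPM in WT. Over the 11 tested genes the median log2 fold change was 0.08, against -0.01 over all genes tested. Of the 11, 9 were positive and 2 negative, against 8293 positive and 9047 negative over all genes tested. None of the 11 passed the threshold, and 2 of 11 were higher at an unadjusted p under 0.05 (3.15% of all genes). Without overlap were 2 of 11 (18.2%, against 12.8% of all genes).

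Col3a1 encodes the single chain of type III collagen, which accompanies type I collagen in distensible tissue. Its mm10 position is chromosome 1, 45311538 to 45349706, plus strand (ENSMUSG00000026043). It measured 162.6, 171.8 and 174.0 CPM in the Abca4KO libraries, against 128.1, 111.3 and 105.9 CPM in the WT libraries. Every Abca4KO library lay above every WT library, and the Abca4KO libraries were the tighter group. The means were 169.5 ± 6.06 CPM in Abca4KO and 115.1 ± 11.6 CPM in WT (SD, n = 3 each), and the log2 difference was 0.56 (SE 0.09). This was the smallest p of the family, adjusted to 0.279 by edgeR. In DESeq2 the log2 fold change was the same 0.56 with an adjusted p of 2.85e-04. Over all 15 other settings the adjusted p ran from 2.85e-04 to 0.976 and the log2 fold change from 0.49 to 0.64.

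Type I collagen is the main fibre protein of sclera and other connective tissue, and its trimer holds more of the Col1a1 chain than of the Col1a2 chain. Col1a1 (chromosome 11, 94936224 to 94953042) measured 230.2, 298.7 and 289.6 CPM in Abca4KO, against 207.3, 214.2 and 160.6 CPM in WT. The genotypes did not overlap, though Abca4KO replicate 1 lay close to the WT range. Its log2 fold change was 0.49 (SE 0.14, adjusted p = 0.616). Col1a2 (chromosome 6, 4504814 to 4541544) measured 251.0, 341.7 and 291.6 CPM in Abca4KO, against 245.1, 278.5 and 203.2 CPM in WT. Here WT replicate 2 exceeded Abca4KO replicate 1, and the log2 fold change was 0.28 (SE 0.15, adjusted p = 0.761).

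The ratio of the chains, which does not depend on how libraries are scaled, separated the genotypes. Col1a1 over Col1a2, each in CPM per kb, was 1.74, 1.65 and 1.88 in Abca4KO, against 1.602, 1.456 and 1.496 in WT. The mean ratio was 1.76 ± 0.114 in Abca4KO and 1.52 ± 0.0752 in WT (SD, n = 3 each). Of 15 ratios between collagen genes that were computed, 3 did not overlap between the genotypes, and no ratio was tested. One of the 3, Col10a1 over Col8a1, had to separate, because its numerator lay above and its denominator below WT in every Abca4KO library. The same share was not computed for ratios of other genes, so 3 of 15 cannot be read as more than usual. Col3a1 over Col1a1 overlapped, at 0.420 ± 0.0465 in Abca4KO and 0.400 ± 0.0479 in WT (SD, n = 3 each).

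The remaining fibrillar genes all overlapped between the genotypes. Type V collagen starts fibrils and sets their width, and its genes Col5a1, Col5a2 and Col5a3 had log2 fold changes of 0.01, 0.08 and 0.00. Col5a3, of which the mean was 50.9 CPM in both genotypes, had a coefficient of variation of 1.07% among WT mice and 9.08% among Abca4KO mice. Type XI collagen does the same work in cartilage and vitreous, and Col11a1 and Col11a2 had log2 fold changes of 0.11 and -0.25. Col27a1 averaged 12.9 ± 1.83 CPM in Abca4KO and 14.4 ± 2.55 CPM in WT (SD, n = 3 each). Col2a1, the main collagen of cartilage and vitreous, averaged 1.52 ± 0.318 CPM in Abca4KO and 1.51 ± 0.660 CPM in WT (SD, n = 3 each). Col24a1 had 56, 5 and 25 counts in Abca4KO and 10, 15 and 22 counts in WT, too few and too scattered for its log2 fold change of 0.85 (SE 0.78) to be read as a difference.

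The 250 bases upstream of the start of Col3a1, the fibrillar gene with the smallest p, are shown here from the RefSeq promoter table for GRCm38.p6 (mm10), at chr1:45311288-45311537 on the plus strand. Capitals mark exact matches, on either strand, to TATAAA or to CATGTG, an E-box recognised by MITF-type factors.
Col3a1: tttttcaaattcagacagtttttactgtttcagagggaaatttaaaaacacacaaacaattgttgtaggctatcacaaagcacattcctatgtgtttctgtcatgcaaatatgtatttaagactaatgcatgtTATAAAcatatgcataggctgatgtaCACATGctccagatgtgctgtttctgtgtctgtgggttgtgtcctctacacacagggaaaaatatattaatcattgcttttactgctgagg
The TATAAA match starts at -117 and the CATGTG match, on the minus strand, at -91 relative to the start. TATAAA or its reverse complement occurred in 12.4% of 32841 upstream windows of this length and CATGTG in 12.3%. Among 38 windows of 35 collagen genes they occurred in 5 and 3. A link between these matches and the level of Col3a1 was not tested.

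Fibroblast, endothelial and mural cell markers were read beside the fibrillar genes, as these cells belong to the sclera and choroid next to the RPE. The 16 fibroblast markers, none of them a collagen, summed to 1489, 1811 and 1470 CPM in Abca4KO and 1535, 1469 and 1334 CPM in WT, with overlap. Dcn held most of these sums, at 813, 1070 and 805 CPM in Abca4KO and 858, 826 and 716 CPM in WT. None of the 16 passed the threshold, 12 had positive log2 fold changes (8293 of 17340 over all genes), and the median was 0.17. Lum, a small proteoglycan of collagen fibrils, was the only 1 of the 16 fibroblast markers without overlap (6.25%, against 12.8% of all genes). It averaged 121.5 ± 6.08 CPM in Abca4KO and 89.8 ± 15.9 CPM in WT (SD, n = 3 each). All 12 endothelial markers were positive (median 0.56), with sums of 766, 811 and 1151 CPM in Abca4KO and 580, 785 and 476 CPM in WT, and 0 of them passed the threshold. At an unadjusted p under 0.05, 7 of the 12 were higher and 0 lower (3.15% and 3.87% of all genes). Without overlap were 3 of 12 (25%, against 12.8% of all genes). The 10 mural cell markers summed to 796, 779 and 885 CPM in Abca4KO and 697, 730 and 582 CPM in WT, without overlap. Rgs5 held much of this sum, at 391, 397 and 433 CPM in Abca4KO and 286, 316 and 190 CPM in WT. Of the 10, 8 were positive and 2 negative (median 0.13). Cspg4 lay below WT in every Abca4KO library, and Pdgfrb and Acta2 had log2 fold changes of 0.004 and -0.01. Taken singly, 4 of 10 did not overlap (40%, against 12.8% of all genes), 3 above and 1 below WT. No defining marker of these 3 lists was at 0 in any library. Their part in the fibrillar values was not tested.

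The basement membrane class was led by Col18a1 and by the Col4a3 and Col4a4 pair, and only Col4a3 had an unadjusted p under 0.05. Type IV collagen occurs as a widespread network of Col4a1 and Col4a2 chains and as a network of Col4a3, Col4a4 and Col4a5 chains that is best known from the kidney filter. The summed level of the 8 genes was 1435, 1257 and 1457 CPM in Abca4KO and 1615, 1448 and 1571 CPM in WT, with overlap. All 8 were tested, 3 were positive and 5 negative, and the median log2 fold change was -0.03. None passed the threshold. At an unadjusted p under 0.05, 0 of 8 were higher and 1 was lower (3.15% and 3.87% of all genes). For 0 of 8 did the libraries of the genotypes separate, against 12.8% of all genes, and a class this small cannot tell these shares apart.

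Col4a3 (chromosome 1, 82586921 to 82722059, plus strand, ENSMUSG00000079465) measured 314.4, 243.7 and 255.6 CPM in Abca4KO, against 392.0, 292.3 and 409.7 CPM in WT. Only WT replicate 2 fell within the Abca4KO range. The log2 fold change was -0.43 (SE 0.15, adjusted p = 0.679). With WT replicate 2 and Abca4KO replicate 1 both left out, a setting chosen after the data were seen, it was -0.70 with an adjusted p of 0.0252. Col4a4 (chromosome 1, 82448423 to 82586849, minus strand) measured 364.0, 309.9 and 348.1 CPM in Abca4KO, against 392.1, 310.6 and 391.2 CPM in WT. Its groups overlapped, and the log2 difference was -0.10 (SE 0.12, adjusted p = 0.899). Col4a5, their partner chain on chromosome X, measured 53.9 ± 6.06 CPM in Abca4KO and 54.5 ± 9.92 CPM in WT (SD, n = 3 each). In single libraries it stood at 56.6, 58.2 and 47.0 CPM in Abca4KO and 62.3, 43.3 and 57.9 CPM in WT. Its log2 fold change of -0.02 changed sign with the library left out.

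Col4a3 and Col4a4 are transcribed away from each other. Their ratio did not overlap between the genotypes, while Col4a5 over Col4a4 did, and neither ratio was tested. Col4a3 over Col4a4, in CPM per kb, was 0.920, 0.837 and 0.782 in Abca4KO, against 1.064, 1.002 and 1.115 in WT. The side of 1 on which a ratio falls depends on the exon lengths used, so only the difference between genotypes is read. In raw counts, WT replicates 1 and 2 also held less Col4a3 (7486 and 5444) than Col4a4 (7489 and 5786). The means were 0.846 ± 0.0694 in Abca4KO and 1.06 ± 0.0568 in WT (SD, n = 3 each). Col4a5 over Col4a4 was 0.252 ± 0.0420 in Abca4KO and 0.235 ± 0.0153 in WT (SD, n = 3 each). The starts of the pair lie 71 bases apart in the deposited table. That gap, chr1:82586850-82586920 of GRCm38.p6 on the plus strand (read from the RefSeq window of Col4a4), is printed because both genes start from it. None of the 6 motifs searched on either strand was found in it, namely the TATA box TATAAA, the CCAAT box, the GC box GGGCGG, the RUNX-type motif ACCACA, the OTX-type motif TAATCC and the E-box CATGTG.
Col4a3-Col4a4 gap: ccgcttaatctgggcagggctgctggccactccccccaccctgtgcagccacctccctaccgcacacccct

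Col4a1 and Col4a2, the chains of the widespread network, form a second head-to-head pair on chromosome 8, with first exons that overlap by 22 bases. They varied with the library more than with the genotype. Col4a1 measured 84.7, 93.4 and 121.7 CPM in Abca4KO and 82.1, 120.6 and 67.9 CPM in WT. Col4a2 measured 83.6, 85.1 and 105.1 CPM in Abca4KO and 81.3, 99.1 and 71.6 CPM in WT. Both were highest in Abca4KO replicate 3, with WT replicate 2 next, and lowest in WT replicate 3. The summed endothelial markers were likewise highest in Abca4KO replicate 3 and lowest in WT replicate 3. A part of endothelial RNA in these values was not tested. The log2 fold changes were 0.15 (SE 0.23) for Col4a1 and 0.12 (SE 0.14) for Col4a2.

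Col4a6, on chromosome X beside Col4a5, measured 14.3 ± 4.18 CPM in Abca4KO and 14.8 ± 4.70 CPM in WT (SD, n = 3 each). Col18a1 encodes the basement membrane collagen from which the fragment endostatin is cut, and Col15a1 is its relative. Col18a1 (chromosome 10, 77052178 to 77166548) was the fourth most abundant collagen per kb. It measured 492, 424 and 542 CPM in Abca4KO, against 564, 551 and 525 CPM in WT. The lowest values were those of Abca4KO replicates 1 and 2, and the groups overlapped at Abca4KO replicate 3 (log2 fold change -0.17, SE 0.10, adjusted p = 0.798). Col15a1 averaged 25.6 ± 2.13 CPM in Abca4KO and 25.1 ± 5.63 CPM in WT (SD, n = 3 each).

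**Figure D3:**
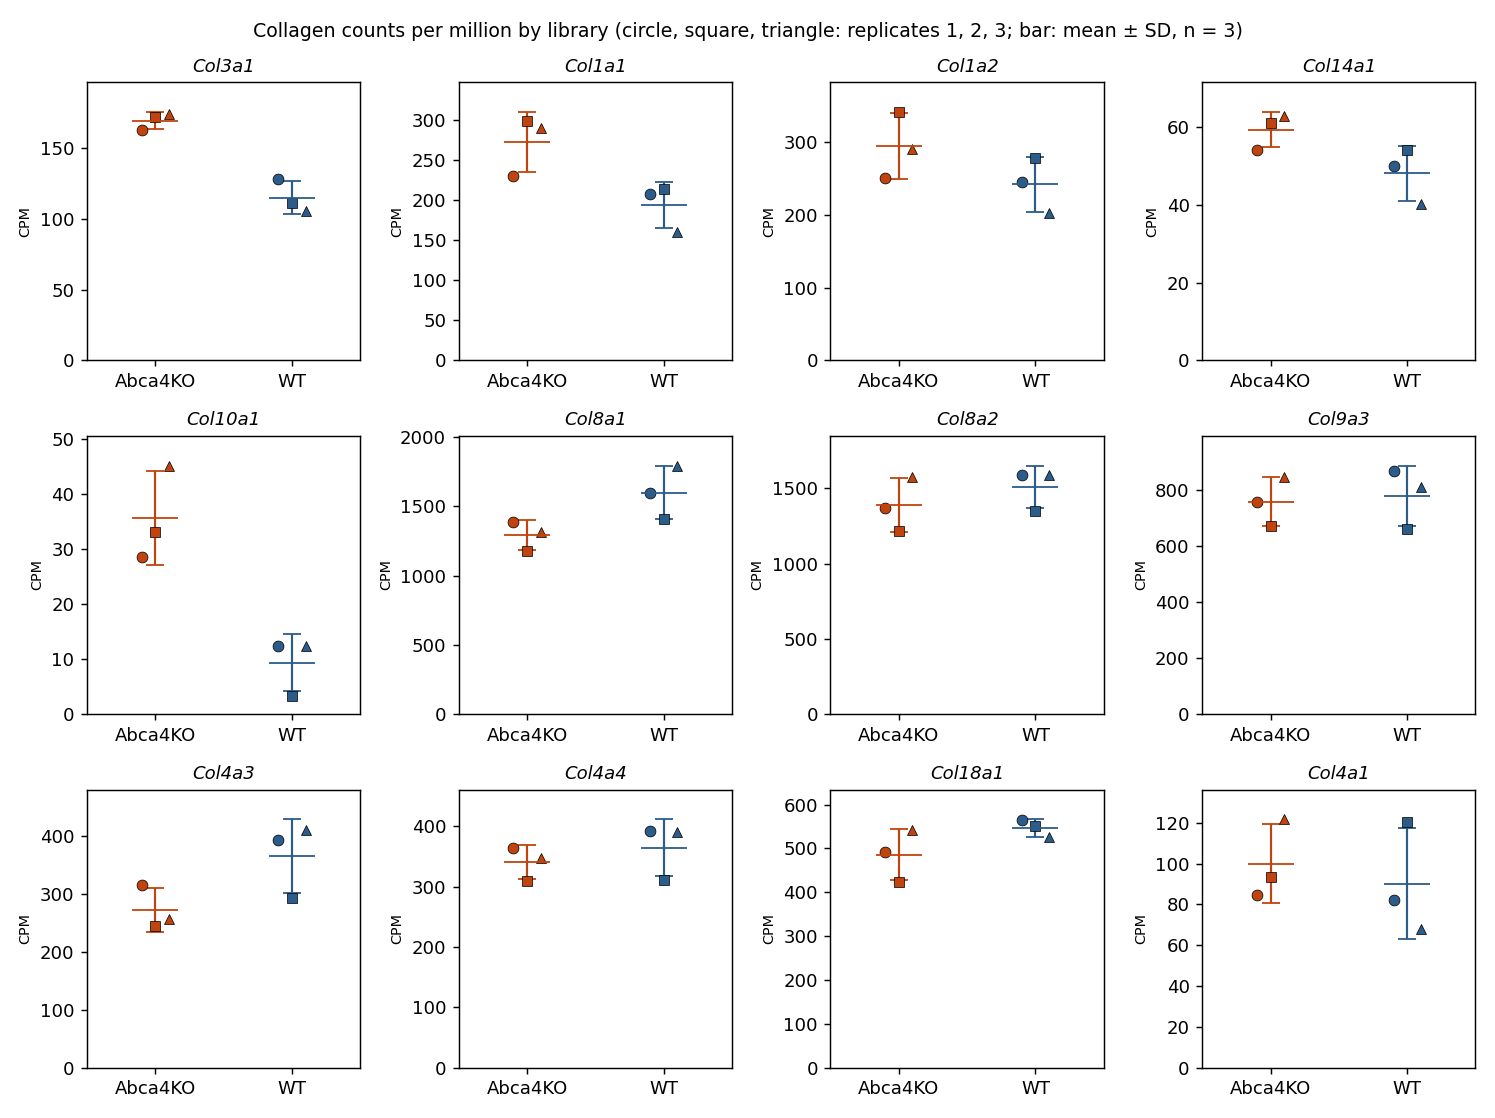
CPM of 12 collagens in each library, with a linear axis from 0, Abca4KO left and WT right. Circles, squares and triangles are replicates 1, 2 and 3, and bars give the mean ± SD (n = 3). Col3a1, Col1a1, Col14a1 and Col10a1 lie higher and Col8a1 lower in all 3 Abca4KO libraries than in any WT library, and the other 7 genes overlap.

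The other collagens held both the most abundant members of the family and the one with the largest fold change, Col10a1. The class covers network, beaded-filament, fibril-associated and transmembrane types. Of its 25 genes 21 were tested, with 10 positive and 11 negative log2 fold changes and a median of -0.04. None passed the threshold, and at an unadjusted p under 0.05, 2 of 21 were higher and 1 was lower (3.15% and 3.87% of all genes). Without overlap, 2 lay above and 2 below WT, 19% of the 21 against 12.8% of all genes.

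Col8a1, Col8a2 and Col10a1 encode the short-chain network collagens. Type VIII forms the hexagonal lattice of the corneal Descemet's membrane and is also made by vessels and in Bruch's membrane, and type X is the product of hypertrophic cartilage cells. Col8a2, the most abundant collagen per kb, averaged 309 ± 40.0 CPM per kb in Abca4KO and 336 ± 31.1 CPM per kb in WT (SD, n = 3 each). In CPM it measured 1368, 1216 and 1574 in Abca4KO, against 1590, 1349 and 1591 in WT. The groups overlapped, and the log2 difference was -0.12 (SE 0.12, adjusted p = 0.880). Col8a1 (chromosome 16, 57624258 to 57754737, minus strand, ENSMUSG00000068196) measured 1388, 1177 and 1315 CPM in Abca4KO, against 1596, 1409 and 1794 CPM in WT. Values in Abca4KO were lower than any WT value, the closest pair being Abca4KO replicate 1 and WT replicate 2. The log2 fold change was -0.31 (SE 0.12, adjusted p = 0.691). Col8a1 over Col8a2, in CPM per kb, was 0.538 ± 0.0534 in Abca4KO and 0.607 ± 0.0363 in WT (SD, n = 3 each), and overlapped.

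Col10a1 (chromosome 10, 34389981 to 34397085, plus strand, ENSMUSG00000039462) differed 3.82-fold between the means, without passing the threshold. It had 563, 644 and 778 counts in Abca4KO, against 237, 62 and 226 counts in WT, or 28.6, 33.2 and 45.2 CPM against 12.4, 3.33 and 12.3 CPM. The groups were far apart, and WT replicate 2 lay far below the other WT libraries. The means were 35.7 ± 8.59 CPM in Abca4KO and 9.35 ± 5.21 CPM in WT (SD, n = 3 each). On the log2 scale the difference was 1.93 (SE 0.45), with adjusted p-values of 0.526 (edgeR) and 4.36e-04 (DESeq2). Without WT replicate 2 it was 1.53 with an adjusted p of 0.0817 in edgeR, and without WT replicate 2 and Abca4KO replicate 1 it was 1.65 with an adjusted p of 0.0126. Over all 15 other settings the log2 fold change ran from 1.53 to 2.19 and the adjusted p from 4.36e-04 to 0.981.

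Col10a1 lies inside Nt5dc1, a gene on the opposite strand, and their exons overlap by 18 bases. Nt5dc1 measured 31.3, 21.4 and 23.7 CPM in Abca4KO, against 26.8, 31.0 and 26.6 CPM in WT, with overlap. The sources used here do not say whether the libraries kept strand, so the split of reads between the pair is uncertain. The cartilage markers were read beside Col10a1. Matn1 was at 0 in all libraries, Acan had at most 0.413 CPM in Abca4KO and 0.436 CPM in WT, and Hapln1 at most 0.304 CPM in Abca4KO and 0.314 CPM in WT. Cnmd and Matn3 were seen in every library at low levels that overlapped, Cnmd at 1.19 to 3.49 CPM in Abca4KO and 1.56 to 3.59 CPM in WT, and Matn3 at 0.930 to 1.75 CPM in Abca4KO and 0.376 to 2.34 CPM in WT. The summed level of the 6 cartilage markers, nearly all of it Sox9, was 179.3 to 210.6 CPM in Abca4KO and 196.5 to 218.0 CPM in WT. A part of cartilage RNA in the Col10a1 values was not tested.

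The stretches upstream of Col10a1 (chr10:34389731-34389980, plus strand) and Col8a1 (chr16:57754738-57754987, minus strand) of GRCm38.p6, from RefSeq, are shown because these related genes had fold changes of opposite sign, neither past the threshold. Capitals mark exact matches on either strand to TATAAA, to GGGCGG (the GC box, here as its reverse complement CCGCCC) and to ACCACA (a RUNX-type motif, here as TGTGGT).
Col10a1: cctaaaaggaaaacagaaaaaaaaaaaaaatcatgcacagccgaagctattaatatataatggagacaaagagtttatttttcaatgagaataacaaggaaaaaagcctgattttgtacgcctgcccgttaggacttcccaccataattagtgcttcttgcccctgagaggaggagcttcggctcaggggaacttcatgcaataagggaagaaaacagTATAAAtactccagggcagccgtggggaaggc
Col8a1: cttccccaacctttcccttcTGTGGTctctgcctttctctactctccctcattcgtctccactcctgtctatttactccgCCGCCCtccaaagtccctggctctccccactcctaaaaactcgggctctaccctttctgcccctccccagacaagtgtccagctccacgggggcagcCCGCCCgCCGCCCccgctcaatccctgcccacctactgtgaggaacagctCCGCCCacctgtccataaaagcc
The Col10a1 stretch holds 1 TATAAA, starting at -32, and no GC box, and the Col8a1 stretch holds 4 GC boxes and no TATAAA. A link between these matches and the fold changes was not tested, and the stretch of Col8a2 is not shown. GC boxes occurred in 32.8% of the 32841 upstream windows and in 22 of 38 collagen windows, and ACCACA in 14.05% and 3. CCAAT occurred in 33.9% and 13, and TAATCC, an OTX-type motif, in 6.25% and 0.

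Fibril-associated collagens coat the surface of fibrils. Col9a3, a chain of type IX collagen that accompanies type II fibrils in cartilage and vitreous, was the second most abundant collagen per kb. It measured 757, 672 and 847 CPM in Abca4KO, against 870, 662 and 810 CPM in WT, with full overlap (log2 fold change -0.04, SE 0.13). Its partner chains were scarce. Col9a1 measured 7.71, 6.14 and 6.22 CPM in Abca4KO and 4.503, 4.13 and 9.09 CPM in WT, and Col9a2 4.77, 2.84 and 1.86 CPM in Abca4KO and 1.26, 2.90 and 1.96 CPM in WT, each with overlap. The means were, for Col9a1, 6.69 ± 0.886 CPM in Abca4KO and 5.91 ± 2.76 CPM in WT and, for Col9a2, 3.16 ± 1.48 CPM in Abca4KO and 2.04 ± 0.824 CPM in WT (SD, n = 3 each). Per kb, Col9a3 exceeded Col9a1 by a ratio of 150.8 ± 25.7 in Abca4KO and 194.0 ± 70.0 in WT (SD, n = 3 each). Col9a3 shares 234 exon bases with Tcfl5 on the opposite strand, which had 2030 counts over the 6 libraries beside 86364 for Col9a3.

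Col14a1, which binds type I fibrils, measured 54.1, 60.9 and 62.6 CPM in Abca4KO, against 49.8, 54.0 and 40.2 CPM in WT. The genotypes did not overlap, by a narrow margin between Abca4KO replicate 1 and WT replicate 2, and the log2 fold change was 0.30 (SE 0.13, adjusted p = 0.706). Col12a1, its close relative, was highest in WT replicate 2, at 71.4 CPM, with 44.8 and 35.8 CPM in the other WT libraries and 40.6 to 47.5 CPM in Abca4KO. Col16a1, Col20a1 and Col22a1 had log2 fold changes of -0.12, 0.03 and -0.11, at mean levels of 8.32, 3.22 and 0.293 CPM per kb. Col20a1 shares exon bases with 9230112E08Rik on the same strand, so its count is uncertain. Col19a1 had at most 14 counts in any library and was not tested.

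Type VI collagen forms beaded microfilaments around cells, and its main chains were nearly level between genotypes. Col6a1 averaged 78.9 ± 8.46 CPM in Abca4KO and 73.8 ± 6.18 CPM in WT, and Col6a2 57.8 ± 6.07 CPM in Abca4KO and 54.0 ± 7.498 CPM in WT (SD, n = 3 each). Col6a3 averaged 25.2 ± 1.06 CPM in Abca4KO and 25.98 ± 4.73 CPM in WT (SD, n = 3 each). Col6a1 over Col6a2, in CPM per kb, was 2.60 ± 0.148 in Abca4KO and 2.61 ± 0.176 in WT (SD, n = 3 each). Col6a4, Col6a5 and Col6a6 were at or below 0.15 CPM per kb. Col6a5 and Col6a6 share a 572-base stretch of 96.9% identity, so their counts are uncertain.

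Both epithelial anchoring collagens were highest in the same WT library. Col17a1 spans the basal membrane of surface epithelia at hemidesmosomes, and Col7a1 forms the anchoring fibrils beneath them. Col17a1 had 10, 9 and 4 counts in Abca4KO, against 4, 491 and 30 counts in WT, and was not tested because too few libraries passed the filter. Its WT replicate 2 value stood alone, but the 6 surface epithelium markers did not all share its pattern. Krt5, Krt12, Aqp5 and Trp63 were highest in WT replicate 2, at 199.3, 154.9, 73.9 and 2.79 CPM, while in Abca4KO they reached at most 13.9, 0.203, 3.56 and 0.722 CPM and in the other WT libraries 32.5, 0.327, 1.52 and 0.980 CPM. Krt15 and Krt14 were highest in WT replicate 3. Krt15 measured 1.27, 36.1 and 4.59 CPM in Abca4KO and 6.28, 28.6 and 62.3 CPM in WT, and Krt14 0 to 2.53 CPM in Abca4KO and 0.628 to 5.55 CPM in WT. Col7a1 measured 4.97, 3.97 and 6.33 CPM in Abca4KO, against 6.34, 10.04 and 6.26 CPM in WT, again with the highest value in WT replicate 2. The part of surface epithelium in these values was not tested.

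The transmembrane collagens Col13a1, Col23a1 and Col25a1 had log2 fold changes of 0.43, 0.25 and 0.35 at mean levels of 1.10, 3.27 and 0.072 CPM per kb, each with overlapping libraries and adjusted p-values above 0.8. Col23a1 was highest in Abca4KO replicate 1, at 27.2 CPM, with 17.9 and 16.0 CPM in the other Abca4KO libraries and 15.2 to 19.8 CPM in WT. Col26a1 had 7, 8 and 2 counts in Abca4KO, against 14, 14 and 12 counts in WT, without overlap. It passed the filter through the WT libraries, and its transcript shares stretches of 100 to 243 bases with many other genes, so its log2 fold change of -1.24 (adjusted p = 0.725) is uncertain. Col28a1, with at most 11 counts in any library, was not tested.

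**Figure D4:**
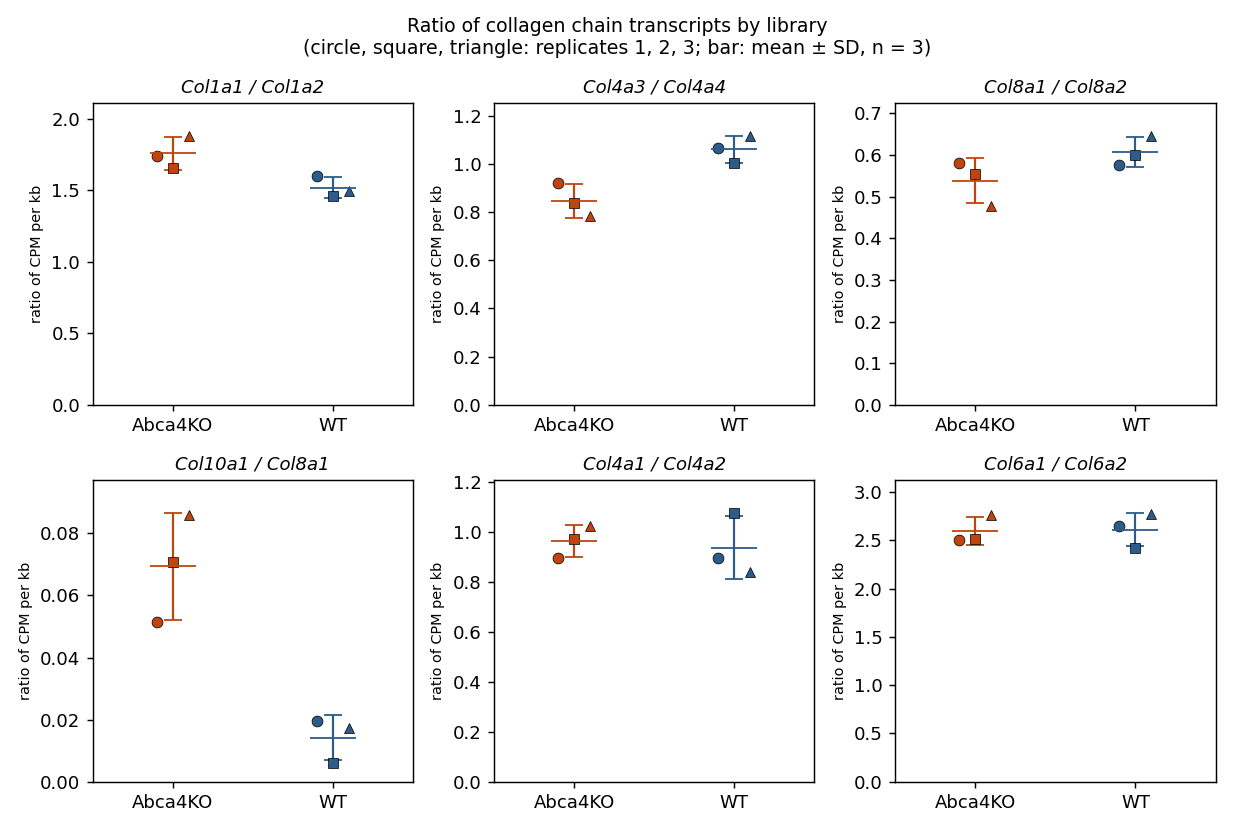
Ratios of collagen transcripts in CPM per kb in each library, Abca4KO left and WT right. Circles, squares and triangles are replicates 1, 2 and 3, and bars give the mean ± SD (n = 3). Col10a1 over Col8a1 restates the separation of its 2 genes. Col1a1 over Col1a2 is higher and Col4a3 over Col4a4 is lower in all 3 Abca4KO libraries than in any WT library, while the other 3 ratios overlap.

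Genes that make, join, bind and degrade collagen were counted in 7 lists. None of their members passed the threshold. The counts that follow are descriptions, and none was tested against all genes. Shares without overlap ran from 10% (collagen receptors) to 33.3% (fibril-binding proteins, TGF-beta signalling), against 12.8% of all genes. Genes named below are the up to 4 of smallest p in each list. Beside each count at an unadjusted p under 0.05 stand 3.15% of all genes higher and 3.87% lower, or less than 1 gene in each direction for lists of this size. The enzymes and chaperones of collagen folding and export had 20 of 24 positive log2 fold changes, against 8293 of 17340 over all genes. Their median was 0.13 (all genes -0.01), and 2 were higher and 0 lower at an unadjusted p under 0.05. Crtap, a part of the prolyl 3-hydroxylase complex, measured 68.7, 70.3 and 81.1 CPM in Abca4KO, against 63.3, 58.4 and 59.7 CPM in WT, without overlap. In the whole list 4 of 24 did not overlap (16.7%). Plod1, a lysyl hydroxylase, averaged 51.5 ± 7.17 CPM in Abca4KO and 42.4 ± 1.78 CPM in WT (SD, n = 3 each). Serpinh1, the collagen chaperone HSP47, averaged 120.6 ± 12.5 CPM in Abca4KO and 106.0 ± 4.49 CPM in WT, and P3h1, a prolyl 3-hydroxylase, 26.9 ± 3.53 CPM in Abca4KO and 23.1 ± 0.688 CPM in WT (SD, n = 3 each).

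Of 15 genes of propeptide cleavage and crosslinking, 9 were positive (median 0.09), with 1 higher and 0 lower at an unadjusted p under 0.05. That gene was Lox, the lysyl oxidase that crosslinks collagen and elastin. It measured 38.0, 48.5 and 44.05 CPM in Abca4KO, against 28.1, 32.5 and 23.6 CPM in WT, so the genotypes did not overlap (log2 fold change 0.63, SE 0.15, adjusted p = 0.520). Pcolce2, an enhancer of procollagen cleavage, was the one gene of this list below WT in all Abca4KO libraries, at 23.2 ± 1.57 CPM in Abca4KO and 27.0 ± 2.58 CPM in WT (SD, n = 3 each). The lysyl oxidase relatives Loxl2 and Loxl3 overlapped, with log2 fold changes of -0.23 and -0.31. In the whole list 2 of 15 did not overlap (13.3%, against 12.8% of all genes).

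Collagen receptors (10 tested, 6 positive, median 0.02) had 0 genes at an unadjusted p under 0.05. Their smallest p-values belonged to Adgrg1, an adhesion receptor that binds type III collagen (log2 fold change 0.43), the discoidin receptor Ddr1 (-0.19), and the integrin subunits Itga10 (0.36) and Itga2 (-0.78). Proteases and inhibitors of collagen breakdown (15 tested, 12 positive, median 0.13) had 3 higher and 0 lower at an unadjusted p under 0.05 (3.15% and 3.87% of all genes). The matrix metalloprotease gene Mmp3 measured 50.3, 92.4 and 55.6 CPM in Abca4KO, against 41.0, 40.0 and 31.2 CPM in WT. Abca4KO replicate 2 stood well above the other libraries (log2 fold change 0.82, SE 0.24, adjusted p = 0.616). Mmp14, a membrane collagenase, averaged 127.0 ± 15.5 CPM in Abca4KO and 101.1 ± 10.51 CPM in WT, and the collagenase gene Mmp13 2.16 ± 0.591 CPM in Abca4KO and 0.892 ± 0.297 CPM in WT (SD, n = 3 each), both without overlap. Mmp8, the neutrophil collagenase, had a log2 fold change of 1.30 with overlap. In the whole breakdown list 4 of 15 did not overlap (26.7%, against 12.8% of all genes).

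Matrix proteins that bind collagen fibrils went both ways. Of 18 tested, 10 were positive (median 0.06), with 3 higher and 2 lower at an unadjusted p under 0.05. Fbn1, the main fibrillin of elastic microfibrils, measured 320.3, 269.5 and 275.1 CPM in Abca4KO, against 425.3, 378.0 and 422.7 CPM in WT. All Abca4KO libraries lay below WT (log2 fold change -0.50, SE 0.10, adjusted p = 0.393), whereas its relative Fbn2 lay above WT, at 23.6 ± 0.721 CPM in Abca4KO and 17.04 ± 1.61 CPM in WT (SD, n = 3 each). Tnc, the matrix glycoprotein tenascin C, averaged 11.4 ± 1.70 CPM in Abca4KO and 5.56 ± 1.76 CPM in WT, and Thbs1, thrombospondin 1, 1060 ± 170.1 CPM in Abca4KO and 1533 ± 209.1 CPM in WT (SD, n = 3 each). Neither overlapped.

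Partners of collagen IV in basement membranes (19 tested, 12 positive, median 0.02) had 2 higher and 2 lower at an unadjusted p under 0.05. Lamb1, a laminin chain, measured 140.1, 128.2 and 136.0 CPM in Abca4KO, against 175.3, 180.3 and 193.9 CPM in WT (log2 fold change -0.44, SE 0.08, adjusted p = 0.348). The laminin chain Lamc3 averaged 25.9 ± 6.04 CPM in Abca4KO and 16.2 ± 1.17 CPM in WT, and the linker nidogen 2, Nid2, 158.2 ± 18.6 CPM in Abca4KO and 192.0 ± 11.2 CPM in WT (SD, n = 3 each). All 3 separated the genotypes without overlap, as did 4 of the 19 in all (21.1%, against 12.8% of all genes). Efemp1, a fibulin of Bruch's membrane, had a log2 fold change of 0.45 with overlap.

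Genes of TGF-beta signalling, a known inducer of collagen genes (15 tested, 9 positive, median 0.06), had 1 higher and 3 lower at an unadjusted p under 0.05. Ltbp2, a microfibril protein related to the TGF-beta binding proteins, measured 17.3, 13.8 and 16.3 CPM in Abca4KO, against 8.48, 9.56 and 7.62 CPM in WT (log2 fold change 0.89, SE 0.16, adjusted p = 0.393). The co-receptor Tgfbr3, the ligand Tgfb2 and the signal transducer Smad3 lay below WT without overlap, with log2 fold changes of -0.25, -0.45 and -0.23 and adjusted p-values of 0.616, 0.625 and 0.701. In the whole list 5 of 15 did not overlap (33.3%, against 12.8% of all genes), 1 above and 4 below WT.

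**Figure D5:**
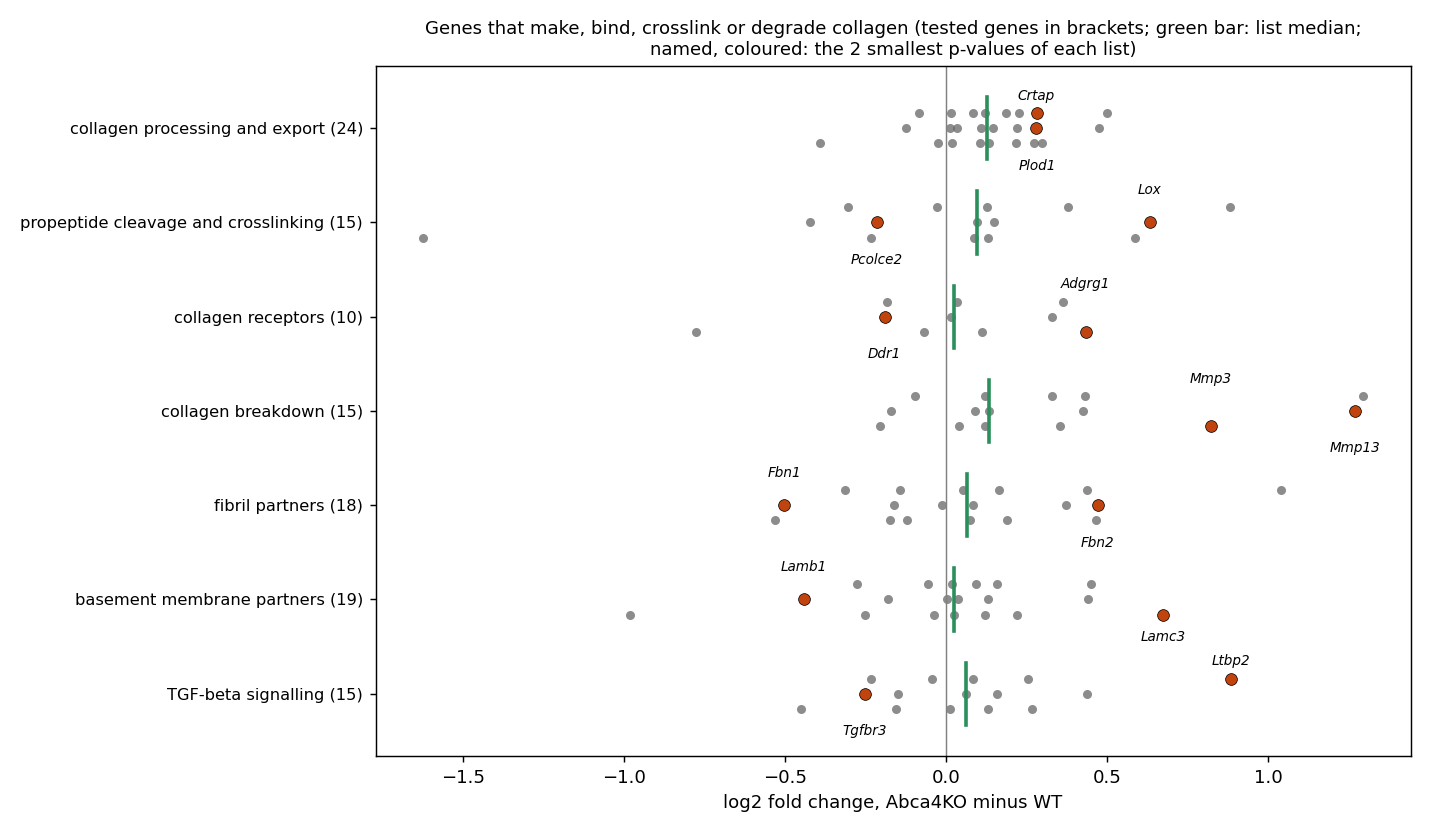
Log2 fold change, Abca4KO minus WT, of every tested gene in 7 lists of collagen-related genes, with the list median as a green bar and the number of tested genes in brackets. The medians lie between 0.02 and 0.13, and none of the genes passed an adjusted p of 0.05.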

How the data were processed

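Retinal pigment epithelium of 3 Abca4KO and 3 WT mice was sequenced, 1 library per mouse. The authors deposited raw counts per gene, not normalized. The submitters' processing notes name STAR, HTSeq and build mm10, none with a version, and the sources used here do not give the strand setting. Gene lengths and other values of the deposited table were used as given, and all 44 collagens had their GENCODE M21 coordinates. The lengths equalled merged M21 exons for 42 of them.

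Genes were filtered with filterByExpr (minimum count 10), scaled by TMM and compared by edgeR 4.0.16 quasi-likelihood tests (R 4.3.3) over all 6 libraries without covariates, with a threshold of 0.05 on Benjamini-Hochberg adjusted p over 17340 genes. The fits were tested on simulated data. SE is the log2 fold change over the square root of F. Alternatives used DESeq2 1.42.0, limma 3.58.1, other scaling and filters, a replicate block, and fewer libraries. Similar transcripts were searched with BLAST 2.17.0 (identity at least 95%, 100 bases). Members, classes and lists were chosen with earlier results of these data known. Values per library were given by rule for the 3 collagens of each class highest per kb or smallest in p and for their partner chains; Col4a1, Col4a2, Col12a1, Col17a1, Col7a1, Col23a1, Col24a1 and Col26a1 were singled out after their values were seen. Lists show up to 4 genes of smallest p. No library pair agreed within counting noise (chi-square per degree of freedom at least 13.5). Reads carry no molecular identifiers, so floors cover counting error only.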

Additional observations from a re-analysis of the deposited data

How the results depend on the processing

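No collagen passed the threshold in 13 of 15 other settings. DESeq2 called 2 (Col3a1 and Col10a1), and 2 passed without WT replicate 2 and Abca4KO replicate 1 (Col10a1 and Col4a3), where 190 genes passed in all and 18 collagens (45%; all genes 48.2%) did not overlap between the genotypes. The cause was not tested. The count over all genes, 8, was 19 with no filter, 114 with DESeq2 and 31 with limma-voom. It was 3 to 11 with single libraries left out, namely 3 without Abca4KO replicate 2, 3 without Abca4KO replicate 3 and 4 without WT replicate 1, and 0 collagens passed in any of these 6 fits. Collagens without overlap, 6 with all libraries, numbered 6 to 12 then (14.6% to 30% of those tested), against 20.1% to 28% of all genes, since fewer libraries overlap less often. There were 12 without WT replicate 2 (30%; all genes 28%) and 10 without Abca4KO replicate 1 (24.4%; 25.6%), Abca4KO replicate 3 (23.8%; 20.1%), WT replicate 1 (23.8%; 21.3%) or WT replicate 3 (24.4%; 21.9%). Class medians moved by less than the spread between replicates in all 15 settings, but those of the basement membrane and other classes, both near 0, changed sign when some single libraries were left out. With single libraries left out, the log2 fold change of Col9a3 ran from -0.15 to 0.044, that of Col4a5 from -0.16 to 0.091 and that of Col9a1 from -0.02 to 0.64, and Col9a1 was -0.15 and Col4a5 -0.21 without WT replicate 2 and Abca4KO replicate 1. The other 11 collagens named by rule kept their direction in all settings. Replicate numbers showed no uniform pairing of the libraries. Deviations from the genotype means correlated at 0.24, 0.40 and -0.11 for numbers 1, 2 and 3. For libraries of unlike number and genotype the correlations ran from -0.43 to 0.37. With 3 libraries in each genotype, these values cannot exclude a pairing. With the replicate block 9 genes and 0 collagens passed, and the smallest adjusted p of a collagen was 0.412, for Col3a1. Low counts limit Col24a1, Col26a1, Col6a4, Col19a1 and Col28a1.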
